A study of Mus musculus with 35 samples.

Results

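The strain difference in the posterior amygdala of standard-housed mice was examined in 9 of the 35 libraries of the series, 5 from B6D2F1N and 4 from C57BL/6J mice, chosen by their genotype, treatment and tissue labels. Each library came from a different mouse, so that the comparison was unpaired. C57BL/6J is an inbred strain, and B6D2F1N mice are the first-generation hybrids of C57BL/6 and DBA/2 parents, so that each hybrid cell carries a chromosome set from each parent strain. All 9 mice were female and were trained on a touchscreen from postnatal day 70 on a restricted diet. Training took between 37 and 90 days over the mice of the whole series, and the labels do not give it for single mice. The paper describes apparently longer training and a higher age in the inbred mice than in the hybrids, neither of them statistically significant. The longer training was seen there particularly in standard housing. The strain comparison was not adjusted for training length or age, and their part in it was not tested. All 9 mice were killed after a cognitive judgment bias (CJB) test, which scores how an animal responds to an ambiguous cue. From postnatal day 77 they stayed in ordinary cages with mock handling, whereas the enriched mice used below for comparison had daily access to a playground. Cells of the basolateral amygdala were cut from stained sections by laser capture, by position and not by a cell marker, and their polyadenylated RNA was sequenced. The portions are named anterior and posterior as the sample labels name them. The positions relative to bregma printed in the paper place its anterior portion further back than its posterior portion. Which naming holds could not be checked. By their CJB labels, 3 of the hybrids were optimists, 1 was a pessimist and 1 was in neither class, against 1 optimist and 3 mice in neither class among C57BL/6J, and the part of this in the strain comparison was not tested.

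The basolateral amygdala links sensory cues to emotional value, mainly through glutamatergic projection neurons under the control of local inhibitory interneurons. Inbred mouse strains differ in fear and anxiety-related behavior, and their genomes differ in single bases, in deleted or duplicated segments and in retrocopies, which are intronless gene copies made from messenger RNA. In a hybrid, a gene that differs between the parents is usually transcribed from both alleles in the same cells.

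Library totals lay between 21961946 and 26126984 counts on genes in the C57BL/6J libraries and between 18574153 and 25125524 in the B6D2F1N libraries, with 21232 to 23469 and 21676 to 25531 genes detected. The B6D2F1N libraries were not alike, and they are numbered 1 to 5 below without any order among them. The library of B6D2F1N mouse 1 held 0 Xist counts, the RNA that silences an X chromosome in female cells, against 70.3 to 208.6 CPM (a gene's counts scaled to a common library size) in the other 8 libraries, and the anterior library of the same mouse also held 0. Its level of Eif2s3x, an X-linked gene that escapes silencing, was 9.86 CPM against 19.7 to 33.6 CPM. Genes of the Y chromosome list were at 0 counts in all 9 libraries. To place each library between the portions, 20 posterior and 20 anterior marker genes were chosen in the enriched mice, and a scale was set on which 0 is the mean of their anterior and 1 the mean of their posterior libraries. On the posterior genes the C57BL/6J libraries stood at 1.07 to 1.13, and B6D2F1N mice 1 to 5 stood at 1.11, 0.33, 0.61, 1.15 and 0.86. On the anterior genes the C57BL/6J libraries stood at 0.99 to 1.21, and B6D2F1N mice 1 to 5 at 1.04, 0.5, 0.68, 0.84 and 0.86. Mice 2 and 3 thus lay between the portions on both gene sets, so counts are also given without them and without mouse 1. Such a position was not particular to these libraries. Enriched C57BL/6J posterior library 2, among those that set the value of 1, stood at 0.63 on the posterior and 0.74 on the anterior genes. The anterior library of B6D2F1N mouse 3 stood at 0.38 and 0.3. In bulk RNA, fewer cells of a type and less RNA per cell cannot be told apart, and nothing in the sources says that the libraries were prepared in more than 1 batch.

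A small set of gene transcripts differed between the strains, most of them higher in the hybrid. Among protein-coding genes, 28 were higher and 12 lower in B6D2F1N. Tpm3-rs7 and Eno1b, copies of a tropomyosin and an enolase gene, had the smallest p. They were followed by Cap1, a regulator of actin turnover, Tmem87a, a Golgi membrane protein, Cramp1l, the relative of the Drosophila chromatin gene cramped, and Mlycd, the malonyl-CoA decarboxylase that sets the balance of fatty acid synthesis and burning. Lower in the hybrid were Ide, the insulin-degrading enzyme, and Fcrls and Gpnmb, which are expressed by microglia and other phagocytes. By edgeR none of the 14 cell-type marker lists held a differentially expressed gene (DEG), and DESeq2 called the endothelial marker Cldn5 lower and the choroid plexus marker Kl higher.

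By edgeR's quasi-likelihood F test, 94 of 25171 genes (0.373%) passed an adjusted p of 0.05, of which 80 (0.318%) were higher and 14 (0.0556%) lower in B6D2F1N. The protein-coding DEGs were 40 of 16472 (0.243%). All 45 processed pseudogenes among the 94 were higher in B6D2F1N, and the remaining types were 2 lincRNAs, 2 processed transcripts, 2 unprocessed pseudogenes, 2 transcribed processed pseudogenes and 1 antisense gene. Over all genes tested, the median log2 fold change was 0.05, and 2605 genes had an unadjusted p under 0.05. The levels of the strains did not overlap in 39 of the 40 protein-coding DEGs, against 3.26% of all protein-coding genes, which is a property close to what the test itself selects. The exception was Zdhhc22. The p-values set each strain difference against the spread between mice of the same strain. Here and below, log2 fold changes are B6D2F1N over C57BL/6J, SE is their standard error, levels are CPM scaled by TMM factors, DEGs and calls are those of the edgeR fit with all 9 libraries and adjusted p-values are from edgeR unless another tool or fit is named. Protein-coding DEGs are placed side by side below by their known roles, which are not tested groups.

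The count rose without B6D2F1N mouse 1 and fell when any other single library was left out. Leaving out each of the 9 libraries in turn, 14 of the 40 protein-coding DEGs were called in all 9 fits, namely Tpm3-rs7, Eno1b, Cap1, Cramp1l, Tmem87a, Mlycd, Myo19, Ccr6, AI429214, Luc7l, Hyou1, C530008M17Rik and Serpina3m, all higher, and Ide, lower. Another 3, Ntng1, Ccdc42 and Fggy, were called in 8 of 9. Of these 17 genes, 14 were higher in the hybrid, and the other 23 were called in at most 4 of the 9 fits. The number fell to between 17 and 24 without any single C57BL/6J mouse or without B6D2F1N mouse 2 or 3, and was 30 and 29 without mouse 4 and mouse 5. Without B6D2F1N mouse 1, 107 protein-coding genes passed the threshold, 43 higher and 64 lower, and 35 of the 40 were among them, in a fit that called 0.667% of all genes. Without B6D2F1N mice 2 and 3, 21 passed, 18 higher and 3 lower, and 15 of the 40 were among them, with 0.221% of all genes called. DESeq2 called 392 of 21524 genes (1.82%).

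**Figure D1:**
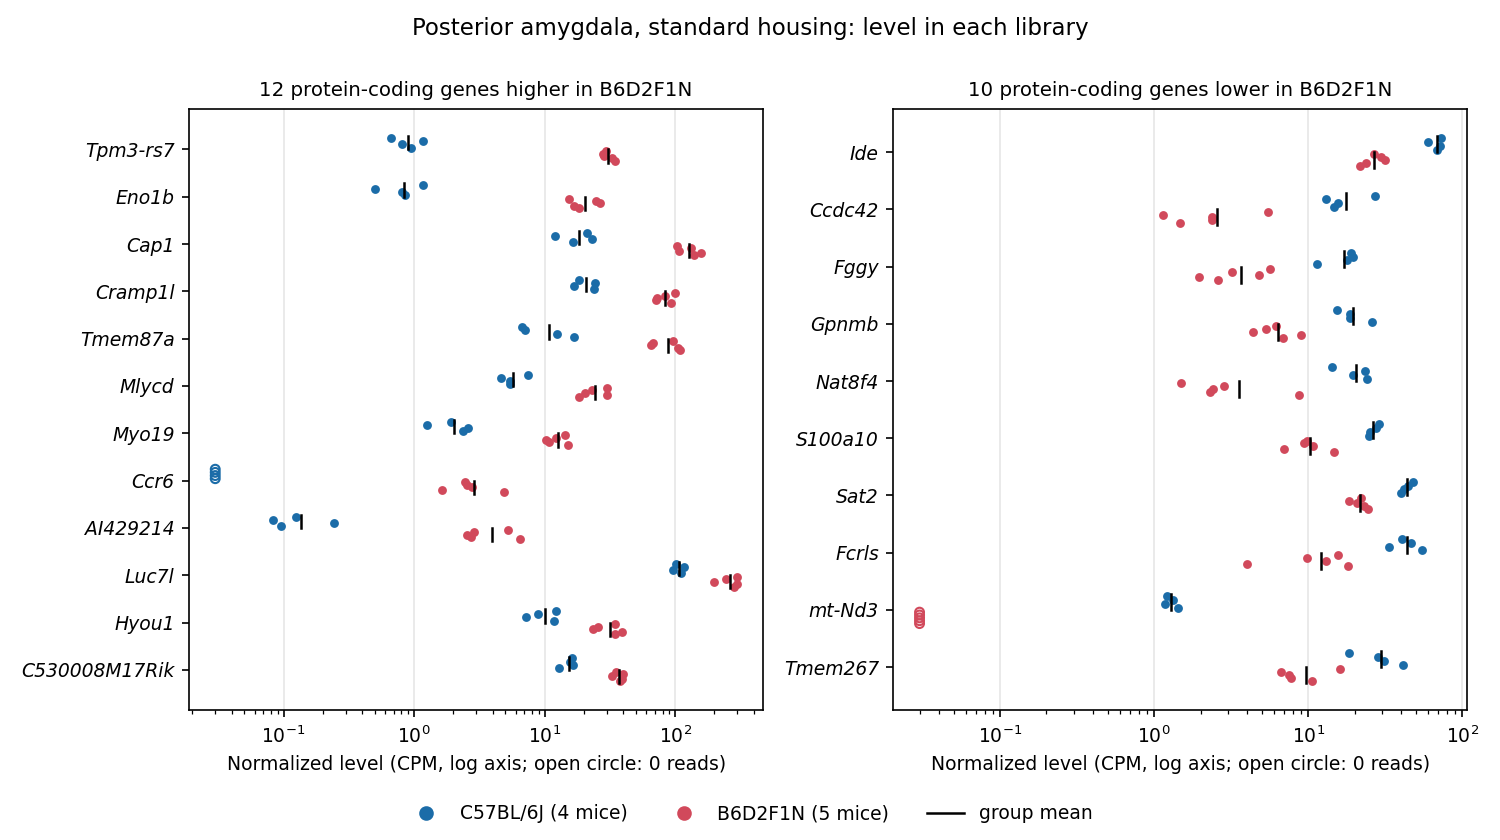
Levels in CPM (logarithmic axis) of the 12 protein-coding genes higher in B6D2F1N with the smallest p and of 10 that were lower, 1 point per library with a bar at each strain's mean and open circles for libraries with 0 counts. For every gene the 5 B6D2F1N points lie wholly on one side of the 4 C57BL/6J points, as for Cap1 (103.7 to 158.9 against 12.1 to 23.1 CPM).

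**Figure D2:**
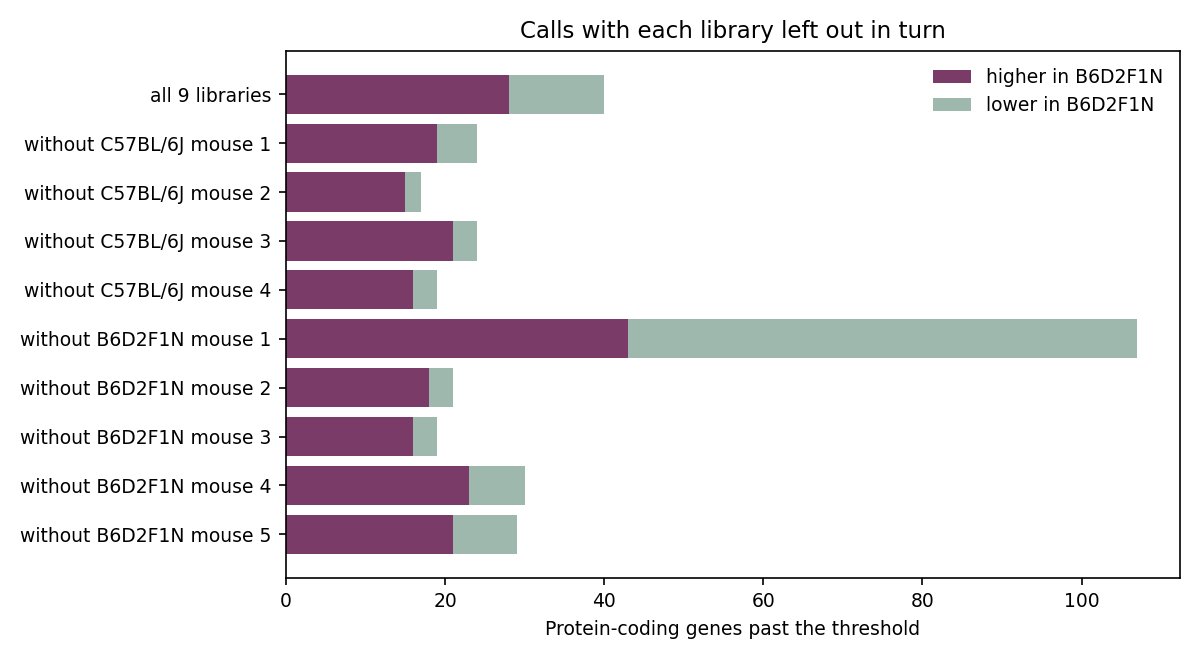
Number of protein-coding DEGs (adjusted p of at most 0.05, edgeR) with all 9 libraries and with each library left out in turn, split into genes higher and lower in B6D2F1N. The number is 40 with all libraries, and it ranges from 17 to 107, the highest value coming without B6D2F1N mouse 1.

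Among the DEGs higher in the hybrid were Cap1, Tmem87a, Myo19, Traf3ip1 and Myh6, with roles in actin, the Golgi, cilia and motor proteins. Cap1, on the minus strand at chr4:122859047-122886056 (GRCm38), was at 21.3, 12.1, 23.1 and 16.5 CPM in the C57BL/6J mice and at 103.7, 131.7, 107.3, 158.9 and 140.1 CPM in the B6D2F1N mice, a log2 fold change of 2.81 (SE 0.25, adjusted p = 3.41e-05). Every hybrid was far above every C57BL/6J mouse, and the difference was as large without mice 2 and 3 (2.88). Tmem87a (chr2:120355312-120404113, minus strand) was at 6.73, 7.09, 12.5 and 16.7 CPM in C57BL/6J and at 96.3, 67.2, 64.9, 104.5 and 109.7 CPM in B6D2F1N (log2 3.04, SE 0.31, adjusted p = 0.000188). Both genes overlap a gene on the other strand, Ppt1 and Ganc, and since the library kit does not mark strand, their reads cannot be told apart where they overlap. Such an overlap was present for 17 of the 40 protein-coding DEGs. Myo19, a myosin that moves mitochondria, rose from 1.92, 1.25, 2.58 and 2.37 CPM to 14.4, 12.3, 10.3, 10.9 and 15.1 CPM (log2 2.63, SE 0.35, adjusted p = 0.00217), again with a wide gap between the strains. Traf3ip1, a component of intraflagellar transport in cilia, was at 6.61 to 13.4 CPM in C57BL/6J and at 21.1 to 33.4 CPM in B6D2F1N (log2 1.48, adjusted p = 0.0214). Myh6, a myosin heavy chain known from heart muscle, was low in both strains, at 0.627 to 1.77 and 3.07 to 14.2 CPM (log2 3.1, SE 0.58, adjusted p = 0.0323), and shares near-identical windows with Myh7.

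Cramp1l, Luc7l, Sympk and Lsm12, with roles in chromatin or RNA, were also among the DEGs higher in B6D2F1N. Cramp1l (chr17:24961226-25015788, minus strand) was at 18.3, 24.4, 16.8 and 23.7 CPM in C57BL/6J and at 99.7, 83.1, 73.2, 71.1 and 93.7 CPM in B6D2F1N (log2 2.02, SE 0.21, adjusted p = 0.000188). Luc7l, related to a yeast factor of splice-site choice and also on chromosome 17, was an abundant transcript at 102.3, 116.9, 96.0 and 111.0 CPM in C57BL/6J and at 296.0, 245.2, 198.4, 298.1 and 282.0 CPM in B6D2F1N (log2 1.31, SE 0.19, adjusted p = 0.00464). The lowest hybrid value of each gene was well above the highest C57BL/6J value. Sympk, a scaffold of the polyadenylation machinery, rose by 1.26 on the log2 scale (8.78 to 13.9 against 24.8 to 31.3 CPM, adjusted p = 0.0212). Lsm12, an Sm-like RNA-binding protein, rose by 1.33 (7.5 to 11.4 against 20.1 to 28.4 CPM, adjusted p = 0.0231), and shares near-identical windows with the pseudogene Gm9727. Among 367 zinc finger genes named Zfp that were tested, edgeR called 0 and DESeq2 4, all higher, and 25 had an unadjusted p under 0.05. The smallest p belonged to Zfp949, at 21.6, 19.4, 23.8 and 20.9 CPM against 43.3, 39.7, 35.3, 59.5 and 42.2 CPM (log2 1.04, SE 0.21, adjusted p = 0.0507), without overlap.

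The enzyme genes Mlycd, Ide and Fggy were DEGs, the first higher and the others lower in the hybrid. Mlycd (chr8:119394878-119411102, plus strand) was at 7.4, 4.63, 5.44 and 5.46 CPM in C57BL/6J and at 30.1, 23.0, 20.5, 30.2 and 18.5 CPM in B6D2F1N (log2 2.09, SE 0.27, adjusted p = 0.00168). It was the only DEG among 20 genes of fatty acid synthesis and oxidation, whose median log2 fold change was -0.04. Ide (chr19:37268743-37337852, minus strand) was lower in the hybrid, at 73.1, 59.4, 71.5 and 68.5 CPM in C57BL/6J and at 26.6, 29.6, 31.5, 23.6 and 21.8 CPM in B6D2F1N (log2 -1.36, SE 0.18, adjusted p = 0.00235). Part of this gene is known to be duplicated in some C57BL/6J animals. Fggy, a carbohydrate kinase, was lower at 5.62, 3.2, 4.81, 1.94 and 2.59 CPM against 18.9, 19.6, 17.9 and 11.4 CPM (log2 -2.22, SE 0.36, adjusted p = 0.0102).

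Nat8f4, a member of the Nat8 family of N-acetyltransferases (chr6:85899051-85904884, minus strand), was at 14.3, 23.5, 19.4 and 24.1 CPM in C57BL/6J and at 1.49, 2.83, 2.42, 2.29 and 8.73 CPM in B6D2F1N (log2 -2.51, SE 0.46, adjusted p = 0.024). Mouse 5 was the highest hybrid but still below every C57BL/6J mouse, and 29.5% of the windows of Nat8f4 also matched another gene, mainly Nat8f2. Sat2, related to the enzyme that acetylates polyamines, fell by 1.00 on the log2 scale (39.9 to 48.0 against 18.4 to 24.5 CPM, adjusted p = 0.0302). Ip6k2, an inositol hexakisphosphate kinase, rose by 0.89 (37.2 to 43.4 against 63.5 to 85.8 CPM, adjusted p = 0.0465). Wdfy1, a protein of early endosomes, was at 35.4, 47.7, 47.5 and 37.2 CPM against 106.6, 100.3, 95.5, 65.7 and 89.6 CPM (log2 1.13, SE 0.2, adjusted p = 0.0237). Wdfy1 and Ide were the 2 DEGs among 10 tested genes known to differ in structure or copy number among C57BL/6J, C57BL/6N and DBA/2, against 0.373% of all genes, and they moved in opposite directions. The list was chosen for such strain differences, with earlier results of these data known. The paper had already reported Wdfy1 for this comparison, so the share of DEGs is not a test of the list. That list also holds Gabra2, which codes for a GABA-A receptor subunit. An intronic variant of C57BL/6J is known to lower its expression. Gabra2 was at 278.7, 478.6, 442.9 and 609.7 CPM in C57BL/6J and at 2306.3, 527.2, 527.5, 1375.2 and 1622.0 CPM in B6D2F1N (log2 1.49, SE 0.42, adjusted p = 0.265 by edgeR and 0.0227 by DESeq2). Mice 2 and 3 lay inside the C57BL/6J range and the other 3 hybrids far above it, and without mice 2 and 3 the gene was called (log2 1.97, adjusted p = 0.00803).

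By edgeR, Hyou1 was the only DEG among 28 genes of protein folding in the endoplasmic reticulum and of the unfolded protein response. This chaperone of the endoplasmic reticulum was at 12.2, 8.93, 7.14 and 11.7 CPM in C57BL/6J and at 34.9, 25.6, 23.5, 39.0 and 34.5 CPM in B6D2F1N (log2 1.66, SE 0.26, adjusted p = 0.0073), with no overlap. Edem1, which helps to remove misfolded glycoproteins, was at 16.7, 20.3, 5.4 and 26.5 CPM against 76.9, 61.5, 45.5, 49.8 and 47.9 CPM and passed by DESeq2 (adjusted p = 0.000792) but not by edgeR (log2 1.71, SE 0.36, adjusted p = 0.0692). The list as a whole had a median log2 fold change of -0.02, with 13 of 28 genes above 0, against 53.6% of all genes. The central chaperone Hspa5 overlapped between the strains (log2 0.13, adjusted p = 0.947).

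Ccr6 and 2 Serpina3 serpins were DEGs higher in the hybrid. Ccr6, the receptor of the chemokine CCL20 (chr17:8236043-8257141, plus strand), was at 0 in all 4 C57BL/6J libraries and at 2.47, 2.56, 2.8, 1.64 and 4.91 CPM in the hybrids, which is at least 22.4-fold higher against a floor of 3 counts per library (adjusted p = 0.00341). This gene was thus read in every hybrid and in no C57BL/6J mouse. The 10 Serpina3 serpins, inhibitors of serine proteases on chromosome 12, had 6 tested members with a median log2 fold change of 1.40. Of these, Serpina3m and Serpina3n were DEGs, against 0.373% of all genes. The paper had already reported Serpina3m, and the list was set with earlier results of these data known. The comparison with all genes is therefore not a test of this family. Serpina3n, which reactive astrocytes are known to induce, was at 29.6, 30.7, 17.7 and 27.2 CPM in C57BL/6J and at 131.8, 114.4, 103.7, 38.4 and 50.3 CPM in B6D2F1N (log2 1.74, SE 0.35, adjusted p = 0.048). Mice 4 and 5 were only a little above the C57BL/6J range, whereas mice 1 to 3 were far above it. Serpina3n was called in only 2 of the 9 fits that left out 1 library, and not without mouse 1 (adjusted p = 0.0635 by edgeR). Serpina3m (chr12:104338486-104394257) was at 0 in every C57BL/6J library and at 3.21, 2.01, 2.57, 1.12 and 1.41 CPM in B6D2F1N, at least 16.1-fold higher (adjusted p = 0.00932). Of its windows, 28.9% also matched another gene, mainly Serpina3k (24.4%).

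Fcrls and Gpnmb were DEGs lower in the hybrid. Fcrls, an Fc receptor-like gene typical of microglia, was at 40.6, 46.6, 33.2 and 54.3 CPM in C57BL/6J and at 15.5, 9.74, 13.1, 4.02 and 18.1 CPM in B6D2F1N (log2 -1.85, SE 0.34, adjusted p = 0.0305). Gpnmb, a glycoprotein of phagocytes that DBA/2J mice are known to carry in a truncated form, was at 15.4, 18.6, 18.7 and 25.8 CPM in C57BL/6J and at 6.19, 5.35, 4.39, 9.02 and 6.82 CPM in B6D2F1N (log2 -1.62, SE 0.29, adjusted p = 0.0214). The strains were clearly apart for both genes. Beside this, the 10 general microglia markers held no DEG, and 1 of the 10 had a log2 fold change above 0, against 53.6% of all genes. Their median was -0.37, and their summed level was 1129.1 to 1472.4 CPM in C57BL/6J and 881.7 to 1278.4 CPM in B6D2F1N. The part of microglial content in the levels of Fcrls and Gpnmb was not tested. S100a10, also called p11, the partner of annexin A2 and a carrier of serotonin receptors to the cell surface, was also lower, at 28.6, 27.5, 25.0 and 24.8 CPM against 9.86, 9.37, 10.8, 6.91 and 14.6 CPM (log2 -1.36, SE 0.25, adjusted p = 0.0273).

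Of 30 tested genes of the major histocompatibility complex and antigen processing, 7 had a log2 fold change above 0 and none was called by edgeR, with a median of -0.58, while DESeq2 called H2-K1 lower and H2-Q4 higher. The class I gene H2-K1 was at 78.2, 76.0, 45.7 and 62.8 CPM in C57BL/6J and at 47.7, 34.5, 30.0, 18.5 and 31.6 CPM in B6D2F1N (log2 -1.02, adjusted p = 0.177), with mouse 1 alone inside the C57BL/6J range. Of 20 interferon-stimulated genes, 4 were above 0 and none was called by either tool (median -0.42). Over all genes tested, 53.6% had a log2 fold change above 0. The hybrids carry DBA/2 alleles of these variable genes, and reads of those alleles were aligned to a genome built from C57BL/6J, so that a part of the difference that comes from alignment cannot be told apart from a difference in RNA.

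Few neuronal genes differed. Ntng1, a membrane-anchored netrin of thalamocortical and other axons (chr3:109780040-110144011, minus strand), was at 19.2, 38.8, 25.0 and 37.0 CPM in C57BL/6J and at 52.9, 132.5, 126.4, 113.6 and 129.0 CPM in B6D2F1N (log2 1.89, SE 0.3, adjusted p = 0.00927). Mouse 1 was the lowest hybrid by a wide margin. With all 9 libraries, edgeR called only Ntng1 among 85 ligands and receptors of axon guidance, whose median was 0.07. DESeq2 also called Lrrc4c, lower, and edgeR without mouse 1 also called Nrp2, lower. Cux2, a transcription factor of upper cortical layers, was at 7.49, 17.6, 28.2 and 22.0 CPM against 37.7, 56.6, 62.4, 73.7 and 82.3 CPM (log2 1.73, SE 0.34, adjusted p = 0.0421). Zdhhc22, a palmitoyltransferase of neurons, was at 58.9, 61.4, 159.0 and 87.3 CPM against 142.6, 323.0, 340.4, 610.2 and 547.6 CPM (log2 2.1, SE 0.41, adjusted p = 0.0413), and the groups overlapped, since C57BL/6J mouse 3 was above B6D2F1N mouse 1. Camk1, a calcium/calmodulin-dependent kinase, rose by 1.18 on the log2 scale (20.7 to 36.2 against 53.8 to 84.9 CPM, adjusted p = 0.0367). In these 4 genes mouse 1 was the lowest hybrid for Ntng1, Cux2 and Zdhhc22, though over all 28 protein-coding genes higher in the hybrid it was the lowest in only 7, against 30.6% of protein-coding genes with a log2 fold change above 0. Without mice 2 and 3, none of Ntng1 (adjusted p = 0.0583), Cux2 (0.121), Zdhhc22 (0.0777) and Camk1 (0.169) passed.

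By edgeR no DEG was found among the receptor, channel and transmitter lists. These were 16 tested GABA-A receptor subunits (median log2 -0.12), 24 glutamate receptor subunits (0.16), 28 genes of monoamine synthesis, transport and reception (0.04), 22 neuropeptides (-0.11), 87 potassium (0.19), 26 calcium (0.25) and 13 sodium channel genes (0.38), and 29 genes of synaptic vesicle release (0.26). In the last, 21 of 29 genes were above 0, against 53.6% of all genes. DESeq2 called 5 members of these lists, Gabra2, Grin2b, Kcnk2, Cacng2 and the vesicle gene Syt2, all higher in B6D2F1N. The NMDA receptor gene Grin2b was at 129.3, 244.7, 253.2 and 438.0 CPM in C57BL/6J and at 657.8, 528.8, 498.3, 732.3 and 491.2 CPM in B6D2F1N (log2 1.13, SE 0.3, adjusted p = 0.216), without overlap. The extrasynaptic GABA-A subunit gene Gabrd was at 29.2, 31.6, 58.9 and 27.0 CPM against 36.9, 76.8, 88.3, 104.3 and 79.6 CPM (log2 1.07, adjusted p = 0.274). Pomc, the precursor of several peptide hormones, was at 1.04 to 4.01 CPM in C57BL/6J and at 2.12 to 136.7 CPM in B6D2F1N, and its log2 fold change of 3.69 (adjusted p = 0.306) rested on mice 2 and 5. Neither tool called a gene among 20 immediate early genes (median 0.30), 14 clock genes (0.26) and 11 glucocorticoid receptors and targets (0.21). Egr1, an immediate early gene, was at 8.05 to 21.3 CPM against 11.5 to 55.0 CPM (adjusted p = 0.47).

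By edgeR none of 94 ribosomal protein genes (median 0.06), 92 nuclear-encoded genes of the respiratory chain and ATP synthase (0.19) 45 glutathione and antioxidant genes (0.02) and 56 clustered protocadherins (-0.18) was called. DESeq2 called 1 of them, the antioxidant gene Sod3, lower in B6D2F1N.

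The remaining protein-coding DEGs have no role that can be given with confidence here, or lie in coiled-coil and transmembrane families named by sequence alone. Ccdc42, a coiled-coil gene, was lower in the hybrid, at 27.2, 13.0, 15.6 and 14.6 CPM against 5.51, 1.14, 2.38, 2.37 and 1.46 CPM (log2 -2.78, SE 0.45, adjusted p = 0.0102). Tmem267 was lower at 16.0, 6.67, 7.46, 7.69 and 10.5 CPM against 18.5, 28.2, 31.1 and 41.0 CPM (log2 -1.62, SE 0.31, adjusted p = 0.0367). In both genes mouse 1 was the hybrid nearest to the C57BL/6J range. AI429214 was at 0.0834 to 0.242 CPM in C57BL/6J and at 2.54 to 6.46 CPM in B6D2F1N (log2 4.8, SE 0.69, adjusted p = 0.0038). C530008M17Rik was at 12.9 to 16.5 against 33.0 to 39.8 CPM (log2 1.27, SE 0.2, adjusted p = 0.0076). Gm9936 was at 0 in all C57BL/6J libraries and at least 11.7-fold higher in B6D2F1N (0.864 to 2.51 CPM, adjusted p = 0.0212), and Gm5678 likewise was at 0 in C57BL/6J and at least 9.87-fold higher (0.918 to 1.6 CPM, adjusted p = 0.024). Of the windows of Gm5678, 28.0% also matched Cbr1. 8030462N17Rik was at 0 to 0.484 against 3.37 to 5.61 CPM (log2 3.95, SE 0.79, adjusted p = 0.0485).

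Gene copies made up much of the list. Of the 94 DEGs, 58 (61.7%) had a near-identical copy, meaning that at least 20% of their 72-base windows, the length of a read, also matched another gene with at most 2 mismatches. Such copies were present for 48 of the 54 DEGs that are not protein-coding (88.9%) and for 10 of the 40 that are. Where the matching gene was tested, 54 DEGs were higher in B6D2F1N with a median log2 fold change of 6.02, while their matches had a median of -0.16 and lay below 0 in 40 of 54 cases. For these genes a read from one copy can be placed on the other, and which copy was transcribed cannot be told apart from the counts alone.

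The smallest p of all genes belonged to Atp6v0c-ps2, a processed pseudogene of Atp6v0c, the membrane subunit of the vacuolar proton pump. It was at 3.47, 3.21, 2.9 and 2.99 CPM in C57BL/6J and at 186.6, 103.4, 109.8, 128.2 and 150.9 CPM in B6D2F1N (log2 5.43, SE 0.26, adjusted p = 1.08e-07). Its parent Atp6v0c was at 345.3, 417.7, 334.4 and 389.5 CPM against 266.0, 143.8, 148.5, 185.1 and 204.6 CPM (log2 -0.97, SE 0.21, adjusted p = 0.0871), with every hybrid below every C57BL/6J mouse. The pseudogenes Gm5802 (log2 7.77, SE 0.47, adjusted p = 8.79e-07), which matched Snrpn, and Gm7172 (log2 7.09, SE 0.48, adjusted p = 3.29e-06), which matched mainly Tuba1a, followed among the genes that are not protein-coding. Among protein-coding genes the smallest p belonged to Tpm3-rs7, an intronless copy of the tropomyosin gene Tpm3, at 0.669, 1.17, 0.807 and 0.949 CPM against 29.5, 28.2, 28.7, 33.0 and 34.9 CPM (log2 5.1, SE 0.29, adjusted p = 5.94e-07). Tpm3 itself was at 161.3 to 182.9 against 127.2 to 153.0 CPM (log2 -0.32, adjusted p = 0.529), and 86.2% of the windows of Tpm3-rs7 matched it. Eno1b, a copy of the enolase gene Eno1, was at 1.17, 0.501, 0.807 and 0.854 CPM against 15.3, 24.6, 26.5, 16.9 and 18.5 CPM (log2 4.6, SE 0.37, adjusted p = 1.75e-05), while Eno1 was at 555.5 to 757.5 against 458.4 to 724.7 CPM (log2 -0.19, adjusted p = 0.867). Gm11273, all of whose windows matched the cytochrome oxidase gene Cox5b, was at 0.292 to 0.766 against 2.46 to 6.06 CPM (log2 3.01, SE 0.6, adjusted p = 0.048), and Cox5b had a log2 fold change of 0.05.

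The mitochondrial gene mt-Nd3, a subunit of respiratory complex I, was the only DEG among 13 mitochondrially encoded proteins. It was at 1.21, 1.33, 1.17 and 1.42 CPM in C57BL/6J and at 0 in all 5 hybrids, at least 9.33-fold lower (adjusted p = 0.0324). Its nuclear copy Gm28438 on chromosome 1 showed the opposite order, at 0, 0.0417, 0.242 and 0.237 CPM in C57BL/6J and at 7.0, 7.27, 8.36, 5.53 and 4.68 CPM in B6D2F1N (log2 5.61, SE 0.76, adjusted p = 0.00235). All windows of either gene matched the other, and both levels were low beside the 13 mitochondrially encoded genes together, which summed to 27854.8 to 41546.3 CPM in C57BL/6J and 22018.0 to 34863.0 CPM in B6D2F1N. The following 72-base stretches, from GRCm38, are shown because they make plain how little separates the members of such pairs. Capitals mark the bases at which the 2 sequences of a pair differ.
mt-Nd3, chrM:9459-9530, plus strand: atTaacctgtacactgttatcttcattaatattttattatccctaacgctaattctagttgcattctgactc
Gm28438, chr1:24613048-24613119, minus strand: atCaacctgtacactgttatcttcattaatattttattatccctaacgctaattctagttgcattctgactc
Tpm3-rs7, chr14:113314676-113314747, plus strand: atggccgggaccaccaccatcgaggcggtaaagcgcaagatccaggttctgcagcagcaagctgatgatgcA
Tpm3, chr3:90079732-90079803, plus strand: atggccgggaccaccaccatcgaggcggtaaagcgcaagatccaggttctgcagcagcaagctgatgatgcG
Atp6v0c-ps2, chr6:37806163-37806234, plus strand: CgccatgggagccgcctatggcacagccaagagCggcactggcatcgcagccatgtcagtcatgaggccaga
Atp6v0c, chr17:24164813-24164884, minus strand: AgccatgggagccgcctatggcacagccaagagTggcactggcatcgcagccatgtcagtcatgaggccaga
Gm11273, chr13:21501247-21501318, minus strand: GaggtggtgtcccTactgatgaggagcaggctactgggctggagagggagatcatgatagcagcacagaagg
Cox5b, chr1:36692208-36692279, plus strand: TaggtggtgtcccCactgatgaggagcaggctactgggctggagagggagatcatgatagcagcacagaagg
The first 2 pairs differ in 1 of 72 bases and the others in 2 of 72. Each is the first coding or transcribed stretch of its pair that differs in 1 or 2 bases, and does not stand for the whole gene.

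In enriched mice, which were different animals, many of the same genes differed by strain in the posterior amygdala. There, 101 of 25640 genes (0.394%) were called over 6 B6D2F1N and 4 C57BL/6J libraries, 39 of them protein-coding. Of the 40 protein-coding DEGs of standard housing, 38 had the same direction in enriched housing, against 52.9% of all genes tested in both, and 16 were called in both, which is 40% of the 40 and 41% of the 39. These were Tpm3-rs7, Eno1b, Cap1, Cramp1l, Tmem87a, Mlycd, Myo19, Ccr6, AI429214, Luc7l, Serpina3m, Traf3ip1 and Wdfy1, all higher, and Nat8f4, mt-Nd3 and Tmem267, all lower. Over genes of every type 63 were shared, 67% of the 94 and 62.4% of the 101. The median log2 fold change of the genes higher in standard housing was 2.1 there and 1.57 in enriched housing, and that of the lower genes was -1.62 and -1.08, of which the first value of each pair is raised by the choice of genes.

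Single genes showed how far this went. Tmem87a was at 7.11 to 12.2 CPM in enriched C57BL/6J and at 53.7 to 104.3 CPM in enriched B6D2F1N (log2 3.16, adjusted p = 5.21e-06), close to its levels in standard housing. Cap1 was at 19.1 to 32.7 and 99.8 to 133.3 CPM (log2 2.09, adjusted p = 6.47e-05), and Nat8f4 at 19.0 to 33.1 and 1.21 to 6.25 CPM (log2 -2.78, adjusted p = 0.00192). In these 3 genes the strains did not overlap in either housing. Other genes were not called in the enriched mice. S100a10 was at 11.9 to 21.1 and 11.3 to 28.4 CPM (log2 0.08, adjusted p = 0.976), Zdhhc22 at 68.5 to 269.8 and 72.7 to 277.4 CPM (log2 -0.07, adjusted p = 0.987), and Ccdc42 at 4.18 to 14.2 and 1.12 to 12.4 CPM (log2 -0.09, adjusted p = 0.989), all with wide overlap. Ide was at 15.1 to 57.7 CPM in enriched C57BL/6J and at 23.0 to 44.2 CPM in enriched B6D2F1N (log2 -0.35, SE 0.3, adjusted p = 0.813), so that the C57BL/6J mice, close together in standard housing, were spread around the hybrids. Gabra2, not called in standard housing, was called in enriched housing (154.5 to 374.6 against 739.4 to 2106.2 CPM, log2 2.27, adjusted p = 0.00248). Mark3, a kinase of microtubule-associated proteins, was also called there (log2 1.17, adjusted p = 0.0148), and in standard housing it was at 40.1, 60.4, 49.7 and 56.6 CPM against 82.2, 85.4, 88.9, 88.5 and 87.0 CPM (log2 0.74, SE 0.18, adjusted p = 0.151 by edgeR), without overlap. The paper, using DESeq2's Wald test, reports Mark3 as different between the strains in standard housing too.

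A difference between the housings was tested by the strain by housing interaction. None of 27871 genes passed (lowest adjusted p = 0.327), 2335 had an unadjusted p under 0.05, and DESeq2 called 37. The smallest unadjusted interaction p-values among the 40 DEGs belonged to S100a10 (0.00082), Zdhhc22 (0.00138), Ccdc42 (0.00185), Sat2 (0.00683) and C530008M17Rik (0.00762). Hence a dependence on housing was not shown for any of them by edgeR, nor was its absence.

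**Figure D3:**
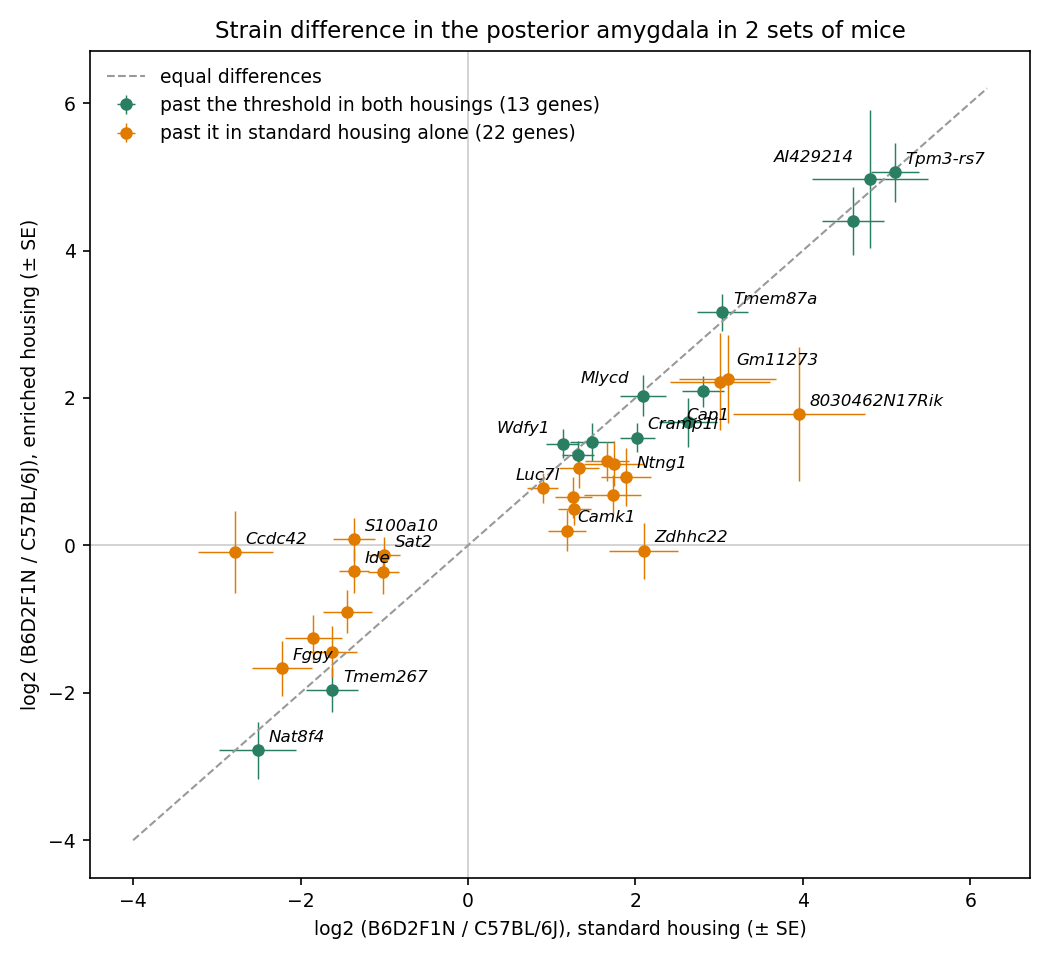
Log2 fold change of B6D2F1N over C57BL/6J in the posterior amygdala of standard-housed mice (x axis) and of enriched mice (y axis) for 35 protein-coding DEGs of standard housing, with bars of 1 SE; 5 genes at 0 counts in all libraries of 1 strain are left out. The 13 genes past the threshold in both housings lie far from the horizontal zero line, and among the 22 past it in standard housing alone S100a10, Zdhhc22 and Ccdc42 lie on or near that line.

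In the anterior amygdala of the same standard-housed mice, 90 of 24305 genes (0.37%) were called. The 2 portions share animals, so the values are given side by side only. All 40 protein-coding DEGs of the posterior portion had the same direction in the anterior portion, against 59.3% of all genes tested in both, and 15 were called in both. Fcrls was at 38.9 to 52.6 against 9.83 to 26.7 CPM there (log2 -1.46, adjusted p = 0.0337), Luc7l at 54.4 to 80.8 against 157.5 to 251.3 CPM (log2 1.78, adjusted p = 0.000311) and Ide at 37.1 to 67.9 against 23.6 to 29.5 CPM (log2 -1.04, adjusted p = 0.0349). The groups did not overlap in these 3 genes. By contrast, Zdhhc22 (log2 0.04), S100a10 (-0.24) and Ntng1 (0.35) were not called in the anterior portion, with adjusted p-values of 0.99, 0.923 and 0.826. The strain by portion interaction, with the mouse as a block, called none of 27316 genes, with 901 at an unadjusted p under 0.05 and 15 called by DESeq2. Its unadjusted p was 0.000676 for Zdhhc22, 0.00962 for S100a10 and 0.000932 for Ntng1.

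B6D2F1N mouse 1 decided a group of genes that the other 4 hybrids shared. Dcn, the matrix proteoglycan decorin, was at 1336.9, 1765.1, 933.3 and 1506.2 CPM in C57BL/6J, at 1682.7 CPM in B6D2F1N mouse 1 and at 58.1, 55.3, 9.02 and 41.6 CPM in mice 2 to 5. With all 9 libraries it was not a DEG (adjusted p = 0.582), and without mouse 1 it was (log2 -5.08, adjusted p = 0.000276). Slc7a3, a transporter of cationic amino acids, showed the same order, at 161.0 to 224.0 CPM in the C57BL/6J mice and at 223.9, 31.2, 35.6, 24.8 and 37.4 CPM in B6D2F1N (without mouse 1, log2 -2.53, adjusted p = 7.73e-05). So did Htr3a, the ionotropic serotonin receptor of a class of interneurons, at 70.2, 107.5, 71.7 and 88.5 against 80.5, 16.3, 10.4, 9.5 and 24.3 CPM (without mouse 1, log2 -2.48, adjusted p = 0.00159), and Crhbp, which binds corticotropin-releasing hormone, at 159.2, 269.3, 93.3 and 186.5 against 159.7, 56.7, 59.0, 33.6 and 53.3 CPM. Ptprc, known as the leukocyte antigen CD45, was at 141.8, 243.5, 207.6 and 440.2 CPM in C57BL/6J and at 347.4, 10.2, 10.9, 5.09 and 22.9 CPM in B6D2F1N (without mouse 1, log2 -4.4, adjusted p = 0.000566), and Ccn3, a secreted matricellular protein, fell by 3.51 on the log2 scale without mouse 1 (adjusted p = 0.000298). In each of these genes mouse 1 was within the C57BL/6J range and mice 2 to 5 below it.

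Genes higher without mouse 1 included Satb1, a chromatin organizer (10.8 to 18.5 CPM in C57BL/6J, and 15.7, 47.3, 39.3, 52.1 and 58.5 CPM in B6D2F1N; without mouse 1, log2 1.74, adjusted p = 0.00412), and Itpr1, the inositol trisphosphate receptor of neurons (77.8 to 115.5 CPM, and 78.8, 235.9, 187.6, 284.1 and 205.8 CPM; log2 1.27, adjusted p = 0.0131). None of these genes was called in the enriched mice, with a log2 fold change of -0.29 for Dcn (adjusted p = 0.935), 0.12 for Slc7a3 (0.968), -0.22 for Htr3a (0.916), -0.42 for Ccn3 (0.821), 0.59 for Crhbp (0.561), 0.09 for Satb1 (0.975) and -0.22 for Itpr1 (0.886). For Ptprc the enriched difference had the opposite sign, at 22.6 to 136.0 CPM in C57BL/6J and 46.3 to 287.4 CPM in B6D2F1N (log2 1.4, adjusted p = 0.493), with overlap. Dcn lay between 9.24 and 42.6 CPM in all anterior libraries of the series, and between 184.2 and 1336.5 CPM in the enriched posterior libraries, when CPM was computed from library totals. On that scale mice 2 to 5 were at 59.3, 58.1, 9.62 and 42.4 CPM, near or just above the anterior range, and mouse 1 was at 1579.8 CPM, while on the 20 posterior marker genes mouse 4 stood at 1.15 and mouse 5 at 0.86. Dcn is itself 1 of those 20 posterior genes and Satb1 1 of the 20 anterior genes, so that the scale is not independent of them. The part of the captured position in these genes was not tested.

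**Figure D4:**
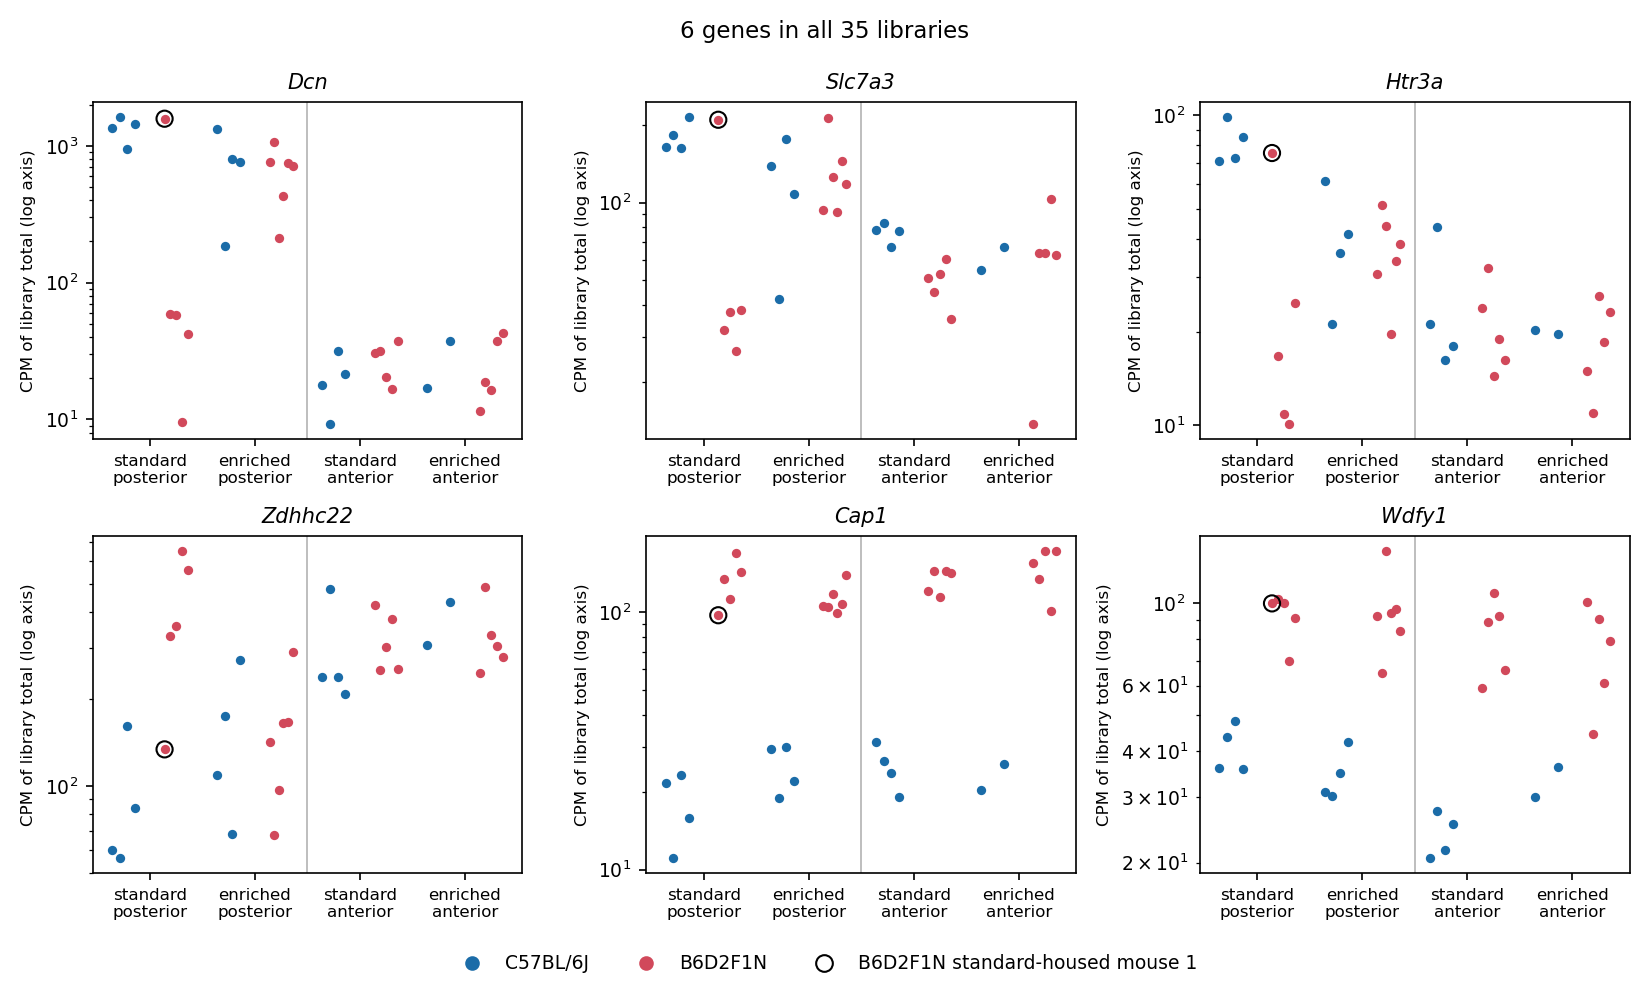
Levels of Dcn, Slc7a3, Htr3a, Zdhhc22, Cap1 and Wdfy1 in CPM of library totals (logarithmic axis) in all 35 libraries by strain, housing and portion, 1 point per library with B6D2F1N standard mouse 1 circled. In the standard posterior hybrids Dcn spans 9.62 to 1579.8 CPM with the circled mouse at the top, whereas Cap1 and Wdfy1 separate the strains in every housing and portion.

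Cell-type markers varied widely among the hybrids. The 10 oligodendrocyte markers summed to 8450.3, 13315.2, 9410.2 and 12215.8 CPM in C57BL/6J and to 8819.9, 25126.0, 20726.8, 2424.7 and 2722.1 CPM in B6D2F1N, where mice 2 and 3 were above and mice 4 and 5 below the C57BL/6J range. Prkcd, a marker of central amygdala and thalamic neurons, was at 10.2 to 12.0 CPM in C57BL/6J and at 11.8, 171.8, 194.0, 17.3 and 9.96 CPM in B6D2F1N (adjusted p = 0.275), high only in mice 2 and 3. The 11 markers of striatal and central amygdala neurons summed to 731.3, 1051.6, 2709.8 and 1009.6 CPM in C57BL/6J and to 1704.4, 580.8, 603.2, 3390.3 and 2616.2 CPM in B6D2F1N. The 4 markers of the basolateral amygdala summed to 253.4 to 361.2 CPM in C57BL/6J and to 165.1 to 280.8 CPM in B6D2F1N. Among them, Rspo2 had only 1 count in B6D2F1N mouse 4 (0.046 CPM of the library total, against 18.2 to 53.1 CPM in C57BL/6J). Rspo2 is itself among the anterior marker genes that place libraries between the portions. Its log2 difference of posterior over anterior in enriched mice was -2.76. By library totals, the standard-housed hybrids were at 36.7 to 282.5 CPM in the anterior and 0.046 to 29.8 CPM in the posterior portion. Its low posterior level is therefore not by itself a measure of basolateral tissue, and the part of captured position was not tested. The 8 excitatory neuron markers had a median log2 fold change of 0.98, and their sums overlapped between the strains. The 10 inhibitory neuron markers summed to 1119.7 to 1189.6 CPM in C57BL/6J, 1236.4 CPM in mouse 1 and 864.2 to 1068.5 CPM in mice 2 to 5.

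The 8 meningeal fibroblast markers summed to 970.6 to 1817.6 CPM in C57BL/6J, 1725.2 CPM in mouse 1 and 52.3 to 104.8 CPM in mice 2 to 5, and Dcn made up between 17.3 and 97.5% of these sums, so that this list repeats Dcn. Of the 10 endothelial markers, 0 had a log2 fold change above 0, against 53.6% of all genes, with a median of -0.48. They summed to 875.8, 972.8, 1013.2 and 1020.9 CPM in C57BL/6J and to 965.0, 639.9, 633.2, 451.4 and 670.4 CPM in B6D2F1N, where mouse 1 was again inside the C57BL/6J range. Cldn5, the tight-junction protein of brain endothelium, was at 107.7, 105.1, 100.5 and 93.4 against 87.6, 39.1, 52.9, 35.3 and 52.5 CPM (log2 -0.93, SE 0.25, adjusted p = 0.218 by edgeR and 0.0386 by DESeq2). The 8 markers of choroid plexus and the 8 of ependymal cells, which line the ventricles, all had log2 fold changes above 0 (medians 1.32 and 1.13). Choroid plexus markers summed to 268.8 to 1515.9 CPM in C57BL/6J and to 423.4 to 4606.4 CPM in B6D2F1N, at least 74.4% of it from Ttr, the thyroid hormone carrier, and ependymal markers to 12.2 to 41.5 and 31.8 to 132.9 CPM. Ttr was at 1447.0, 410.4, 916.3 and 199.9 CPM against 1441.7, 340.5, 1831.5, 4459.0 and 2936.9 CPM (log2 1.57, adjusted p = 0.467), with overlap. The part of these cell types in the DEGs was not tested.

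Leaving out mouse 1 added DEGs to the gene lists, namely Cldn5, Dcn and H2-K1, the hippocampal marker C1ql2, the potassium channel subunit Kcnmb2, Crhbp, Htr3a, the glutamate receptor subunit Grin3a, the semaphorin receptor Nrp2 and Zfp711, all lower in B6D2F1N, and Cacng2, a subunit that guides AMPA receptors, higher. C1ql2 was at 10.5 to 25.4 CPM in C57BL/6J and at 16.7, 2.33, 4.96, 1.64 and 1.73 CPM in B6D2F1N (without mouse 1, log2 -2.63, adjusted p = 0.0191). Cacng2 was at 16.0, 33.5, 28.1 and 28.6 against 35.2, 87.3, 85.3, 50.8 and 52.6 CPM (without mouse 1, log2 1.38, adjusted p = 0.0408).

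**Figure D5:**
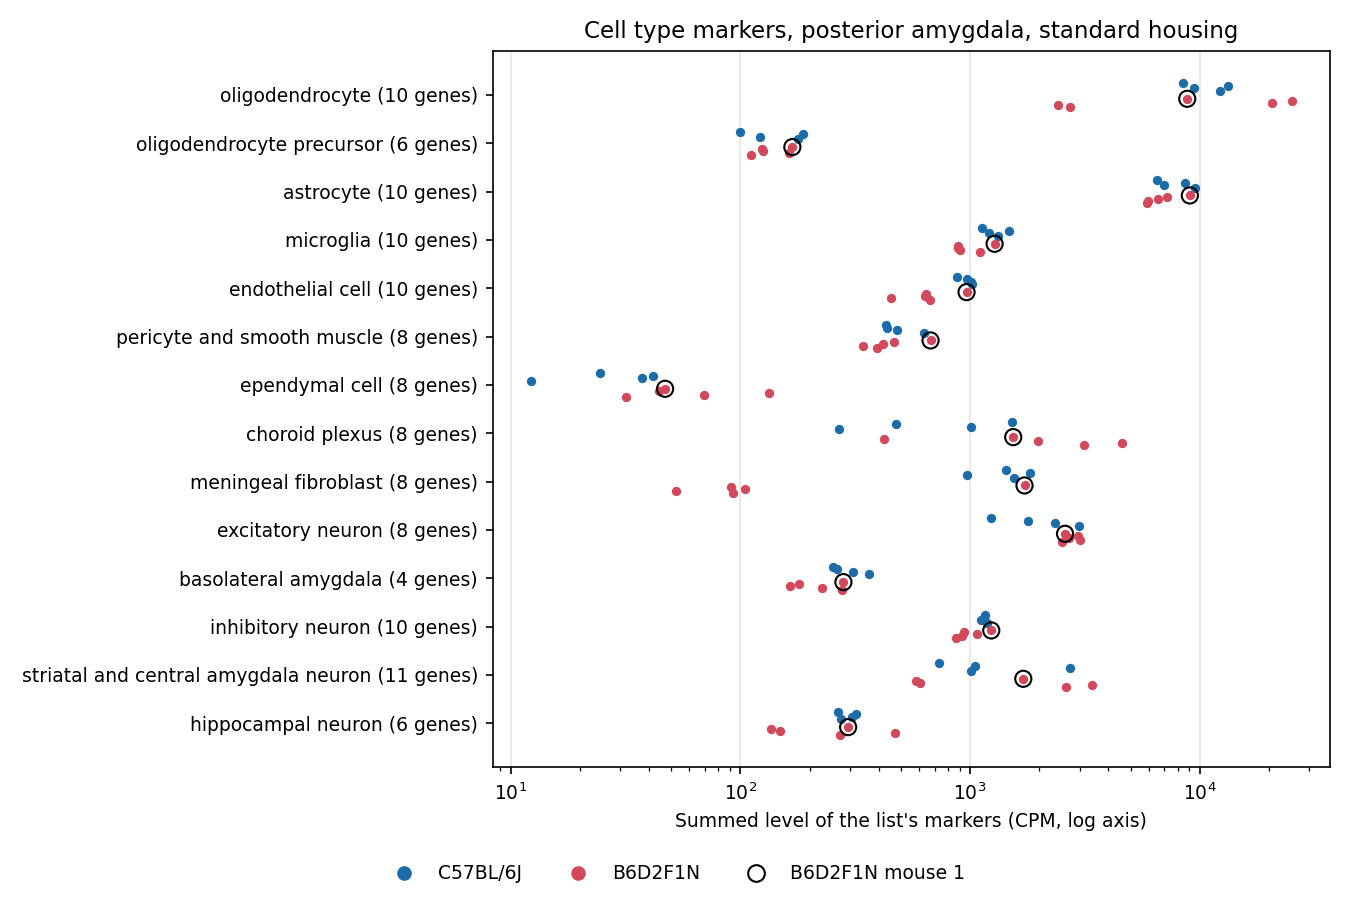
Summed levels in CPM (logarithmic axis) of 14 lists of cell-type markers, 1 point per library by strain. The ranges of the strains overlap in every list, and the widest spread on the logarithmic axis is that of the meningeal list in B6D2F1N, from 52.3 to 1725.2 CPM.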

How the data were processed

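The authors made libraries of laser-captured amygdala RNA with a low-input kit that does not mark strand and read 72 bases from 1 end. Per the submitters' processing notes, bcl2fastq, FastQC 0.11.7, Trimmomatic 0.38, HISAT2 2.1.0, SAMtools 1.8 and HTSeq 0.11.2 were used with GRCm38 (mm10). The annotation release and the strand setting of the counting are not given in the sources used here. The authors deposited read counts per gene of each library, neither normalized nor filtered. In the 9 libraries, 14.2 to 25.1% of reads fell on no gene, 6.23 to 9.31% were not unique and 3.06 to 3.69% were ambiguous, and these stayed out of totals and tests. Symbols, types and positions came from GENCODE M21, which held 52489 of 52636 identifiers. No 2 of the 35 libraries were identical in 595 pairs.

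A gene entered the test when its counts over the 9 libraries summed to 10 or more. Tests were made with edgeR 4.0.16 in R 4.3.3 (TMM, quasi-likelihood F test, Benjamini-Hochberg adjustment over all genes tested, threshold 0.05). Alternatives were DESeq2 1.42.0, limma 3.58.1 (voom with quality weights), DESeq2 size factors, filterByExpr, no minimum, protein-coding genes only, robust dispersion, 1 fit over 4 groups and each library left out. Leaving out B6D2F1N mice 2 and 3 was added after the data were seen. Copies were found with bwa 0.7.19 from windows every 36 bases. A gene at 0 was given a floor of 3 counts per library, which covers counting error only. The scripts were tested on simulated counts.

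The members and gene lists were chosen with earlier results of these data known. Named genes are the protein-coding genes past the threshold (values for the 12 higher and 12 lower with the smallest p, of which 2 lower ones are not reported here, ranges or values for the rest), called members of the lists, of lists without one the members with the smallest p, defining cell-type markers, genes of a table of the study, the 3 other genes with the smallest p, and genes that 1 library decides. Hspa5, Tpm3, Eno1, Cox5b, Atp6v0c, Gm28438, Crhbp, Ttr, Pomc, Egr1, Satb1, Itpr1 and list members called by DESeq2 alone were named beside them after their values were seen.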

Additional observations from a re-analysis of the deposited data

Results flagged for a closer look

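In groups of 4 or 5 libraries, a library was marked when its distance to the nearest other exceeded Dixon's 95% limit. This marked 8 of 174 groups (4.6%), and chance marks about 1 in 20. B6D2F1N mouse 1 accounted for 4 of them, as the highest library for the meningeal fibroblast list (1725.2 CPM), Dcn (1682.7 CPM) and Ccdc42 (5.51 CPM) and the lowest for Ntng1 (52.9 CPM). B6D2F1N mouse 5 was the highest for Nat8f4 (8.73 CPM). Among C57BL/6J, mouse 3 was the highest for the striatal and central amygdala list (2709.8 CPM) and mouse 1 the highest for the interferon-stimulated genes (237.6 CPM) and for Gm7172 (0.293 CPM).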

How the results depend on the processing

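The number of genes called over all types, 94, was 392 with DESeq2, 238 with voom, 53 without B6D2F1N mice 2 and 3 and 18 when only protein-coding genes were tested, and 59 to 166 when single libraries were left out. For protein-coding genes, 40 became 252 with DESeq2, 126 with voom (57 higher, 69 lower), 61 with no minimum count, 18 with only protein-coding genes tested and 21 without B6D2F1N mice 2 and 3, and 17 to 107 with single libraries left out. DESeq2 called 342 genes in enriched housing, 254 in the anterior portion, 37 for strain by housing and 15 for strain by portion, where edgeR called 101, 90, 0 and 0. With single libraries left out, edgeR called 68 to 86, 60 to 83, 0 to 14 and 0 to 24. Strain by portion gave 46 with no minimum count. The strain comparison is between different mice and has no pairs. For strain by portion, standard housing, the mouse pairs the libraries of both portions, and without the replicate block 0 genes were called (1713 at an unadjusted p under 0.05). Of 877 values of 49 genes under the alternatives, 655 kept direction and side of the threshold, 217 were no longer past it, 5 were newly past it and 0 changed direction. All 360 list levels moved by less than the spread between mice. The cause of these changes was not tested. With 4 and 5 libraries, a gene near 1 CPM rests on about 20 to 30 counts in a library.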
